A study of Mus musculus with 8 samples.

Results

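The ERK feedback genes are the inducible MAP kinase phosphatases Dusp1, Dusp2, Dusp4, Dusp5 and Dusp6, the Sprouty genes Spry1, Spry2 and Spry4, and the Sprouty-related genes Spred1 and Spred2. They were taken by symbol from the deposited table, which holds 10 of these 10 among its 15576 genes, and 10 of 10 were among the 11937 genes that passed the filter on low counts. Between untreated and imatinib-treated leukemic cells labelled as stem cells, 2 of the 10, Dusp1 and Dusp2, fell at an adjusted p under 0.05 and 0 rose, against 3.93% and 6.29% of all genes tested. Neither passed when 3 closely similar untreated libraries were summed to 1. Another 3, Dusp4, Spry1 and Spred2, were lower in every treated library than in any untreated one without passing the test, which makes 5 of the 10 with groups apart, against 13.1% of all genes. Dusp5, Dusp6, Spry2, Spry4 and Spred1 had overlapping groups.

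These genes form the transcriptional brake of the pathway that they report on. Growth factor receptors and oncogenic kinases such as BCR-ABL activate RAS, which drives the kinases RAF, MEK and ERK in turn. Active ERK induces immediate early transcription factors and its own inhibitors. The DUSP proteins remove phosphate from the threonine and tyrosine of the activation loop of MAP kinases, while the Sprouty and SPRED proteins act upstream at the level of RAS and RAF. In myeloid leukemias driven by a tyrosine kinase the level of this group is commonly read as a measure of ERK output.

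Bone marrow cells labelled as stem cells were sorted from C57BL/6 mice with CML and sequenced in bulk, with 4 libraries from untreated mice (CML) and 4 from mice given the tyrosine kinase inhibitor imatinib (CML-TKI). The CML model of the study is the double transgenic BCR-ABL×SCL-tTA mouse, so both groups carry the oncogene. BCR-ABL is switched on by taking away tetracycline and is driven by a transactivator under SCL control, which is active in stem cells and in some of their progeny. Imatinib was given by gavage at 400 mg/kg on alternate days, for 4 weeks in one label and 30 days in another, while the methods of the study name more than one dose and a figure legend gives a lower dose for the sequenced cells. The labels give the sort as Lin-Sca1+cKit+Flt3-CD150-CD48+, a gate of multipotent progenitors, while the study describes its leukemic stem cells (LSCs) as CD150+ and CD48-. Ages are not stated, nor is it stated that each library came from a separate mouse, so the p-values measure the spread between these libraries. No healthy mice without BCR-ABL are in the table.

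Total estimated counts ran from 4939639 to 8620097 in CML and from 1041562 to 5104276 in CML-TKI, with CML-TKI 3 the shallowest library. There, 3 counts equal 3.27 CPM (counts scaled to a common library size), while in the other libraries they equal 0.406 to 0.924 CPM. The treated libraries were less alike: the biological coefficient of variation over all genes was 68.6% in CML-TKI and 28.1% in CML. CML-TKI 1 stood apart, at −19.2 on the first principal component against 70.1 to 119 for the other CML-TKI libraries and −74.4 to −69.3 for CML. CML 1, CML 2 and CML 3 were far closer to each other (median chi-square per gene of 1.25 to 1.35, 0.455 being the value for pure counting noise) than any other pair within a group (5.94 to 15). The column numbered 5 was the CML library with no matching number in the labels and is called CML 5. Results for the feedback genes and the pathway lists are therefore given with and without CML-TKI 1 where that library changes a call.

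The labelled cell type was checked against markers. None of the stem cell markers listed was at 0 in all libraries of a group, and Kit, the receptor used in the sort, lay between 759 and 1017 CPM in CML and between 193 and 288.5 CPM in CML-TKI. Ly6a, which encodes Sca1 of the same gate, lay between 33.0 and 38.2 CPM in CML. In CML-TKI 1 to 4 it had 44.0, 9.54, 8.71 and 1.55 CPM (adjusted p = 0.373 by edgeR). Of 9 stem cell markers tested, 4 fell (Kit, Slamf1, Meis1, Hlf), while 12 of 13 granulocyte markers and 10 of 10 monocyte and macrophage markers rose by edgeR's quasi-likelihood test. Without CML-TKI 1, 9 of the 10 stem cell markers then tested fell. Called granulocyte markers numbered 6, 6 and 7 without CML 1, 2 and 3, and those of monocytes and macrophages 7 to 10 over the fits that left out 1 library. The summed level of the 9 tested and 1 untested stem cell markers was 1838 to 2323 CPM in CML, 625.5 CPM in CML-TKI 1 and 227.8 to 350.6 CPM in the other CML-TKI libraries. The granulocyte sum was 180.8 to 302.4 CPM in CML, 1519 CPM in CML-TKI 1 and 8066 to 8614 CPM in the rest, and the monocyte and macrophage sum was 234.9 to 308.3, 1250 and 3517 to 6094 CPM in the same order. Of the megakaryocyte markers, 3 of 7 tested fell, and 1 of 8 erythroid markers rose, with an erythroid sum of 49260 CPM in CML-TKI 3 and 71.9 to 616 CPM in the other treated libraries. Called megakaryocyte markers numbered 1 without any 1 of the CML libraries or CML-TKI 3 and 6 without CML-TKI 4. Called erythroid markers numbered 0 without any 1 of the CML libraries or CML-TKI 3, 5 (all higher) without CML-TKI 1, 4 (all higher) without CML-TKI 2 and 4 (2 higher, 2 lower) without CML-TKI 4. Of 2 basophil and mast cell markers tested, Cpa3 rose and Gata2 fell, and the sum of that list was 255 to 358 CPM in CML, 1222 CPM in CML-TKI 4 and 69.7 to 224 CPM in the other treated libraries. Gata2 was called in each of 8 fits that left out 1 library, and Cpa3 in those without CML-TKI 1 or CML-TKI 3 only. The calls of that list numbered 1 without CML-TKI 2 or 4, 4 without CML 3 and 6 without CML-TKI 3. Of 3 lymphoid markers tested, 0 passed by edgeR, at an unadjusted p under 0.05 as well, and by DESeq2 and limma-voom, and the lymphoid sum was 22.6 to 32.5 CPM in CML, 311 CPM in CML-TKI 3 and 23.8 to 64.6 CPM in the other treated libraries. Mcpt8, Cd3e, Cd3g and Cd8a were at 0 in all CML libraries. The part of these shifts in the values below was not tested. In bulk RNA, fewer cells of a type and less RNA per cell cannot be told apart.

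**Figure D1:**
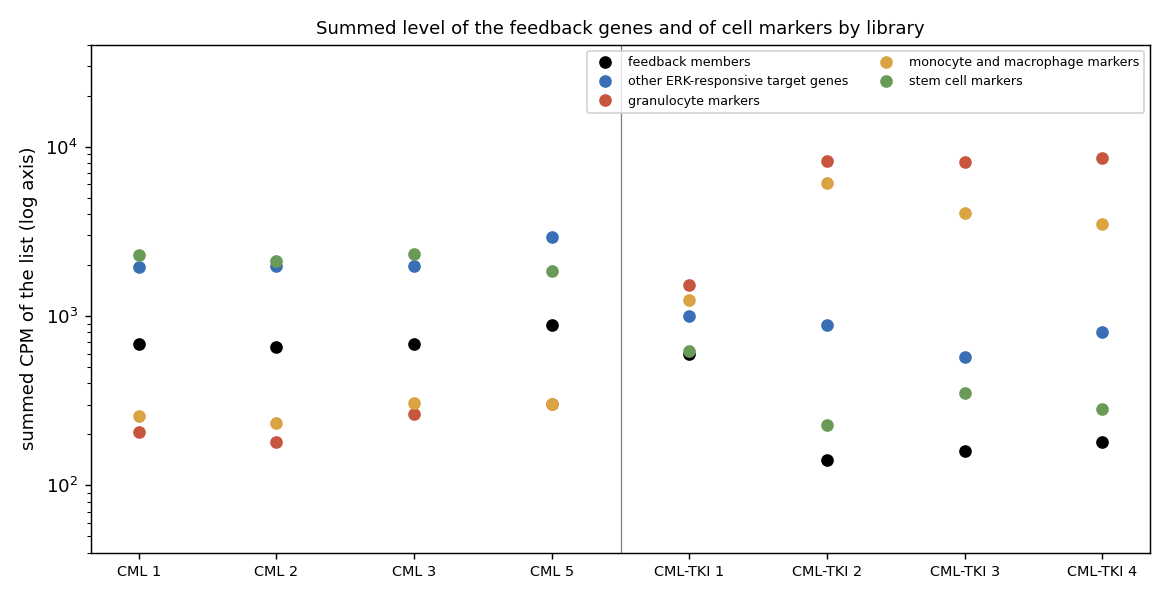
Summed CPM (log axis) of the 10 feedback genes, of other ERK-responsive genes and of 3 lists of cell markers in each of the 8 libraries. CML-TKI 1, at 594.4 CPM for the feedback genes, lies near the untreated libraries (655.6 to 886.8 CPM), and the other 3 treated libraries lie between 141 and 180.7 CPM.

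Of the 10 feedback genes, 9 had a fitted log2 fold change below 0, and their median was −1.25 against −0.00029 for all genes tested. Among all 11937 genes, 5970 had a fitted change below 0. The 2 called genes stand against 3.93% of all genes called lower and 6.29% called higher (10.2% in either direction) at an adjusted p under 0.05. At an unadjusted p under 0.05 there were 4 lower (Dusp1, Dusp2, Dusp4, Spred2) and 0 higher, against 12.1% of all genes lower at that level. DESeq2 called 4 lower and limma-voom with quality weights on the libraries 6, against 8.40% and 10.9% of all genes called lower by these tools. In the second, the tool and the weights were changed at once. By groups that do not overlap, 5 of 10 were lower and 0 higher, against 13.1% and 10.3% of all genes. Dusp1, Dusp2, Dusp4 and Spry1 were at or below −1.94, the value that bounds the lowest 5 percent of all log2 fold changes. Summed over the 10 genes, the level was 655.6 to 886.8 CPM in CML and 594.4, 141, 160.1 and 180.7 CPM in CML-TKI 1 to 4, so the groups did not overlap.

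**Figure D2:**
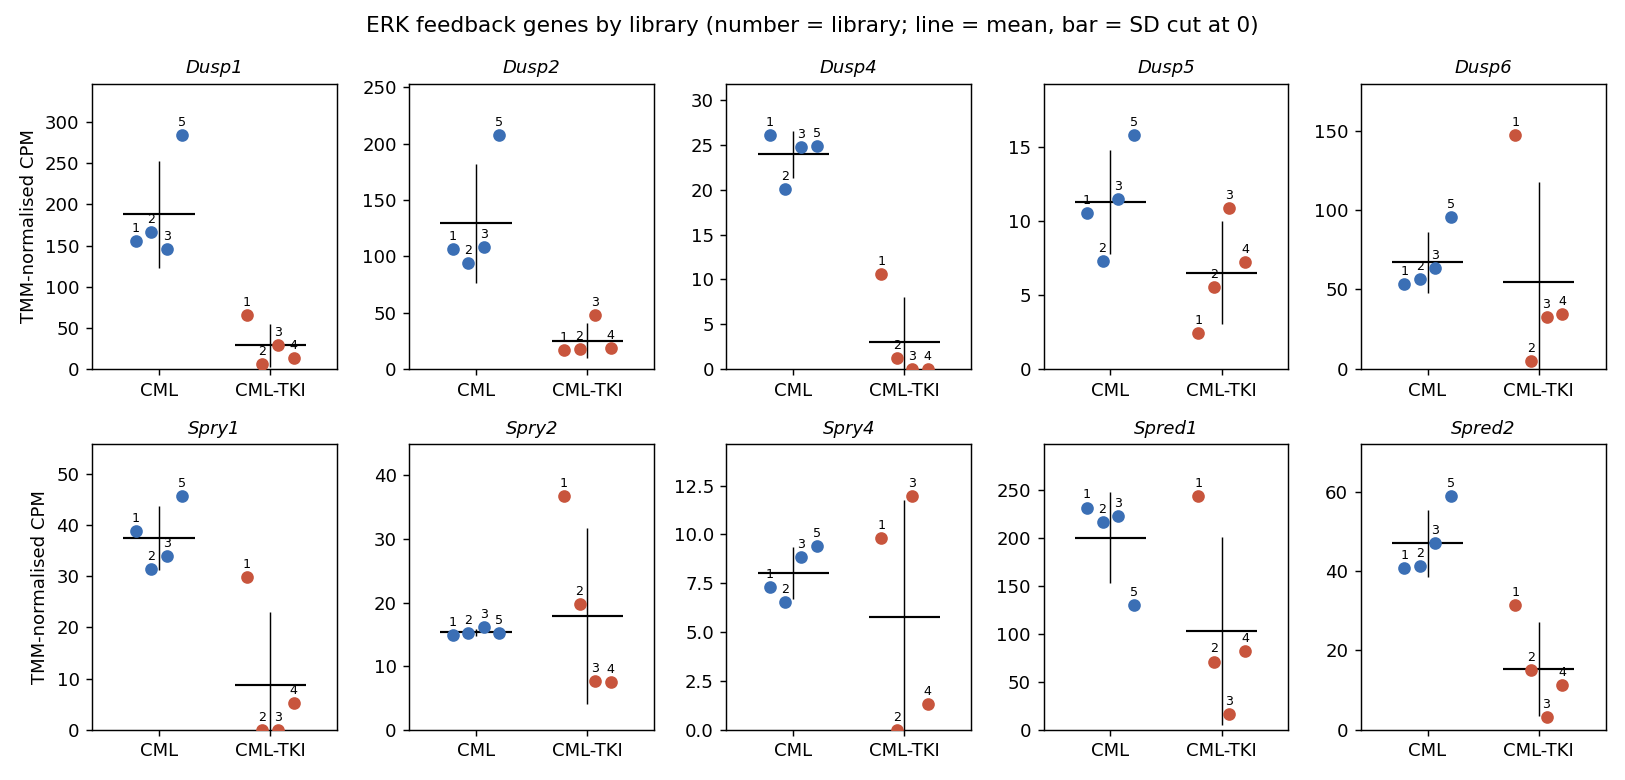
TMM-normalised CPM of each feedback gene in the 4 CML and 4 CML-TKI libraries, numbered by library, with the mean as a line and the SD as a bar cut at 0. Dusp1, Dusp2, Dusp4, Spry1 and Spred2 have no treated library at or above an untreated one, and CML-TKI 1 is the highest treated library in 7 panels.

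Dusp1 (chromosome 17, 26505591 to 26508472, minus strand, GRCm38) encodes a nuclear phosphatase that acts on p38 and JNK as well as ERK, and is an immediate early gene itself. It had 156, 167, 145.5 and 284 CPM in CML 1, 2, 3 and 5 and 65.7, 5.85, 29.4 and 13.7 CPM in CML-TKI 1 to 4. Every treated library was below every untreated one, with CML 5 the highest of all and CML-TKI 1 the nearest to the untreated range. The means were 188 ± 64.8 CPM and 28.7 ± 26.5 CPM (SD), a log2 fold change of −2.70 (SE 0.629) with an adjusted p of 0.0252 by edgeR. Without CML-TKI 1 it was −3.68 with an adjusted p of 0.00159. The adjusted p rose above the threshold when any of 6 libraries was left out: it was 0.0585, 0.0582, 0.0514 and 0.0732 for CML 1, 2, 3 and 5, and 0.0595 and 0.0604 for CML-TKI 3 and 4, while the log2 fold change stayed between −2.82 and −2.44 in these fits.

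Dusp2 (chromosome 2, 127336159 to 127338377, plus strand) encodes a nuclear phosphatase of ERK and p38 that is largely confined to blood cells. Its level was 107, 94.0, 108 and 208 CPM in CML 1, 2, 3 and 5, and 16.6, 17.2, 47.9 and 18.4 CPM in CML-TKI 1 to 4. The groups were fully apart, and CML-TKI 1 was here the lowest library rather than the nearest to CML. The log2 fold change was −2.44 (SE 0.422, adjusted p = 0.00691 by edgeR), from 129 ± 52.6 to 25.0 ± 15.3 CPM. Dusp2 kept its call in each of 8 fits that left out 1 library, with values between −2.88 and −2.11. It did not pass with CML 1 to 3 summed to 1 library (−2.71, adjusted p = 0.0551), nor did Dusp1 (−2.96, adjusted p = 0.159).

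The promoters of 3 phosphatase genes are shown because they hold matches to motifs of factors downstream of MAP kinases or of CREB, in the window from 250 bases before to 50 bases after the start in RefSeq sequence of GRCm38. Capitals mark the CRE, CRE core, EGR and CArG matches, GC boxes outside them are left in lower case, and all sequences are written 5′ to 3′ on the strand of the gene. Dusp1 holds the CRE, TGACGTCA, starting at −143, with a further core of that motif, TGACGT, at −191 (chr17:26508573-26508672, minus strand). Dusp2 holds the EGR motif GCGNGGGCG at −98 (chr2:127336009-127336088, plus strand), which overlaps a GC box, GGGCGG. Dusp5 holds a pair of adjacent CArG boxes, the site of serum response factor, at −82 and −72, and a CRE core on the other strand at −56 (chr19:53529035-53529114, plus strand).
Dusp1: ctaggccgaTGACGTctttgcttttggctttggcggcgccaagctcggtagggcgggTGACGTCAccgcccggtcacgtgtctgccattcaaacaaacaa
Dusp2: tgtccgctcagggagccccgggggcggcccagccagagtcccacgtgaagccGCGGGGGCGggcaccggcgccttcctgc
Dusp5: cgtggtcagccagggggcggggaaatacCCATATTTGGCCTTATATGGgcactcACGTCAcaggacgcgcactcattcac

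Windows were given for 8 of the 10 genes, without Dusp4 and Spry4. On both strands, the CRE was in 1 of these 8 windows and in 1.79% of all 32851 windows of the same length, the CRE core (which the CRE contains) in 3 (Dusp1, Dusp5, Spred2) and 7.51%, the EGR motif in 1 and 5.55%, and the CArG box in 1 and 1.63%. The GC box was in 6 of 8 and 35.7%. No window of the 8 held the AP-1 motif TGANTCA, the ETS motif CCGGAAGT, the STAT motif TTCNNNGAA or TATAAA, which were in 7.81%, 3.89%, 8.30% and 13.6% of all windows. A match describes the letters only.

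Dusp4 (chromosome 8, 34807610 to 34819894) encodes another nuclear phosphatase of ERK and JNK. It was even among untreated libraries, at 26.1, 20.1, 24.8 and 24.9 CPM, and had 10.6, 1.23, 0 and 0 CPM in CML-TKI 1 to 4. No count was seen in CML-TKI 3 or 4, where 3 counts would equal 3.27 and 0.775 CPM. Its log2 fold change, −2.82, was the lowest of the 10 genes, but with an SE of 1.03 it did not pass the test (adjusted p = 0.115 by edgeR). Without CML-TKI 1 it was −5.53 with an adjusted p of 0.00172. The decrease thus passed the test only in the fit without that library among those that left out 1 library.

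Dusp5 (chromosome 19, 53529145 to 53541809) encodes a nuclear phosphatase that acts on ERK alone. It had 10.6, 7.29, 11.5 and 15.8 CPM in CML and 2.45, 5.54, 10.9 and 7.24 CPM in CML-TKI 1 to 4. CML-TKI 3 lay inside the untreated range, so the groups overlapped. The log2 fold change of −0.85 (SE 0.543) did not pass the test, with an adjusted p of 0.362 by edgeR, and it was −0.57 without CML-TKI 1.

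Dusp6 (chromosome 10, 99263231 to 99267489) encodes the cytoplasmic, ERK-specific phosphatase that is often used as a readout of ERK activity. Its level was 53.4, 56.4, 63.5 and 95.3 CPM in CML and 147, 5.23, 32.7 and 34.4 CPM in CML-TKI 1 to 4. CML-TKI 1 was the highest library of all 8 and the other treated libraries were below all 4 untreated ones. Over 4 against 4 libraries the log2 fold change was −0.27 (SE 0.725, adjusted p = 0.856 by edgeR). Without CML-TKI 1 it was −1.52 (SE 0.558, adjusted p = 0.0877), and without CML-TKI 2 it turned to 0.11, so the sign depended on the library left out.

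Levels of Dusp6 and Dusp1 can be set against each other within a library, where depth is shared. The ratio of Dusp6 to Dusp1 in CPM was 0.335 to 0.437 in the 4 CML libraries and 2.24, 0.895, 1.11 and 2.51 in CML-TKI 1 to 4. The ratio was thus higher in every treated library than in any untreated one, also in CML-TKI 2, where both genes were low. For Dusp6 and Dusp1 it rests on 17 and 19 counts in CML-TKI 2 and on 30 and 27 counts in CML-TKI 3. Few of the possible pairs of genes were compared, and how many others separate the groups was not counted. Per kilobase of transcript, the ratio of Dusp1 to Dusp2 was 1.09 to 1.44 in CML and 3.21, 0.276, 0.499 and 0.607 in CML-TKI 1 to 4, above the untreated range in CML-TKI 1 and below it in the others.

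None of the 3 Sprouty genes passed the test over 4 against 4 libraries. Spry1 (chromosome 3, 37639947 to 37644599), a membrane-bound inhibitor of signalling from receptors to RAS and RAF, had 38.8, 31.5, 34.0 and 45.8 CPM in CML. In CML-TKI 1 to 4 it had 29.8, 0, 0 and 5.17 CPM, the last from 20 counts. CML-TKI 1 was just under the lowest CML library and the other treated libraries were far below it. The log2 fold change was −1.98 (SE 1.06, adjusted p = 0.276 by edgeR), and −4.08 with an adjusted p of 0.011 without CML-TKI 1.

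Spry2 (chromosome 14, 105891947 to 105896819, minus strand), the best studied Sprouty, had the steadiest level of the group in CML, at 14.9, 15.2, 16.1 and 15.2 CPM. It had 36.8, 19.7, 7.62 and 7.49 CPM in CML-TKI 1 to 4, so that CML-TKI 1 and 2 lay above and CML-TKI 3 and 4 below all untreated libraries. The log2 fold change of 0.25 (SE 0.511, adjusted p = 0.802 by edgeR), the single value above 0 among the 10 genes, fell to −0.37 without CML-TKI 1.

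Spry4 (chromosome 18, 38586247 to 38601347, minus strand) was the lowest of the 3 per length, with 7.31, 6.52, 8.83 and 9.42 CPM in CML. In CML-TKI 1 to 4 it had 9.81, 0, 12.0 and 1.29 CPM, from 52, 0, 11 and 5 counts, which spans the untreated values on both sides. The log2 fold change was −0.55 with an SE of 0.998 (adjusted p = 0.778 by edgeR), a difference smaller than the spread among the treated libraries.

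Spred1 (chromosome 2, 117121071 to 117182279), which recruits the RAS GTPase-activating protein neurofibromin to the membrane, came first among the 10 genes per length in CML-TKI, and second to Dusp2 over CML-TKI 2 to 4. It had 232, 217, 222.5 and 130 CPM in CML 1, 2, 3 and 5 and 244, 71.1, 16.3 and 81.7 CPM in CML-TKI 1 to 4. CML-TKI 1 was above all untreated libraries and the other treated libraries were below CML 5, the lowest untreated one. The log2 fold change was −0.93 (SE 0.597, adjusted p = 0.363 by edgeR), and without CML-TKI 1 it was −1.79 with an adjusted p of 0.0241.

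Spred2 (chromosome 11, 19924442 to 20024026) encodes a close relative with the same action. It had 40.7, 41.2, 47.0 and 59.0 CPM in CML and 31.5, 15.1, 3.27 and 11.4 CPM in CML-TKI 1 to 4, the third of these from 3 counts. The groups were apart, with CML-TKI 1 again nearest to the untreated libraries. Its log2 fold change of −1.56 (SE 0.502) came closest to the threshold among the genes not called, at an adjusted p of 0.0799 by edgeR, and it was −2.14 with an adjusted p of 0.00767 without CML-TKI 1.

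**Figure D3:**
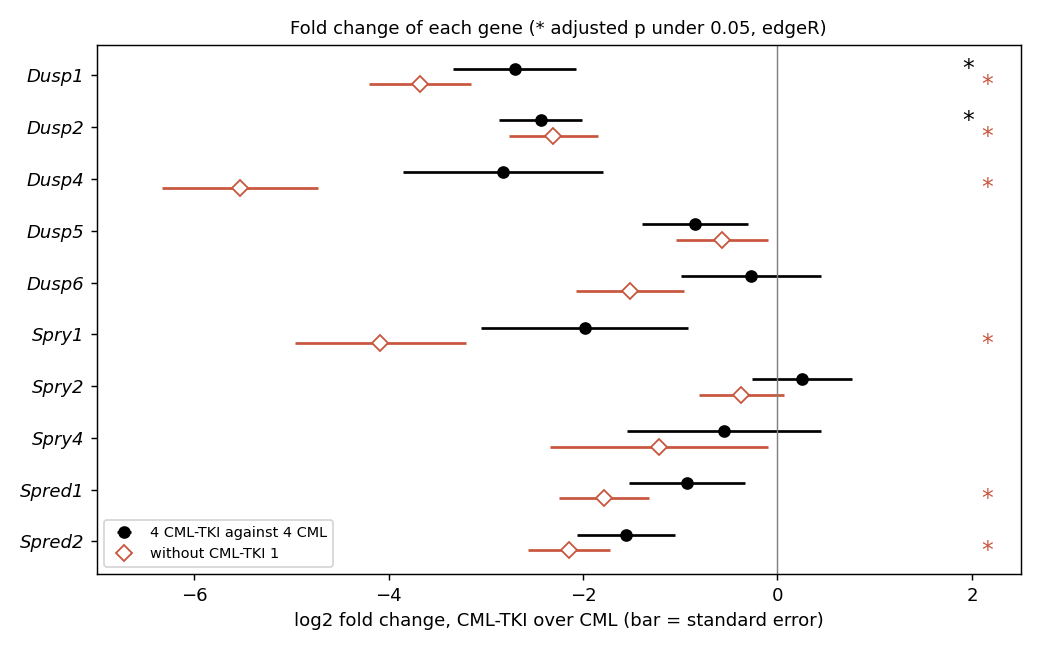
Log2 fold change of CML-TKI over CML for each gene with its standard error, over 4 against 4 libraries (filled) and without CML-TKI 1 (open), where a star marks an adjusted p under 0.05 by edgeR. Dusp1 and Dusp2 carry a star in both fits, and Dusp4, Spry1, Spred1 and Spred2 only in the fit without CML-TKI 1.

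CML-TKI 1 differed from the other treated libraries for most of these genes. This library was the highest treated one for 7 of the 10 genes, was above every CML library for 4 (Dusp6, Spry2, Spry4, Spred1) and below every CML library for 6 (Dusp1, Dusp2, Dusp4, Dusp5, Spry1, Spred2). CML-TKI 2, 3 and 4 were below every CML library for 9, 8 and 10 genes. Without CML-TKI 1, 6 of the 10 genes were called lower (Dusp1, Dusp2, Dusp4, Spry1, Spred1, Spred2) and 0 higher, against 11.0% of all genes called lower in that fit. Groups were apart for 7 of the 10, Dusp6 included, against 20.9% of all genes. Dusp5, Spry2 and Spry4 were not called in either fit, at adjusted p of 0.446, 0.607 and 0.494 in the second.

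By family, the summed Dusp level was 344.4 to 628 CPM in CML and 242.5, 35.1, 121 and 73.7 CPM in CML-TKI 1 to 4, with no overlap. The Spry sum was 53.1 to 70.3 CPM in CML and 76.4, 19.7, 19.6 and 14.0 CPM in the treated libraries. The Spred sum was 189 to 272.5 CPM in CML and 275.5, 86.2, 19.6 and 93.0 CPM. The treated libraries other than CML-TKI 1 were below the untreated range for all 3 sums. In CML-TKI 1 the genes of a family did not move together: the Dusp sum was below that range although Dusp6 was above all untreated libraries, and the Spry and Spred sums were above it, the second by little, although Spry1 and Spred2 were below all untreated libraries.

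Per kilobase of transcript, levels can be compared between genes. In CML the order was Dusp1 (94.5 ± 32.6 CPM per kb, SD), Dusp2 (79.8 ± 32.6), Spred1 (53.7 ± 12.7), Dusp6 (24.0 ± 6.88), Spred2 (16.5 ± 2.98), Spry1 (15.2 ± 2.55), Dusp4 (8.75 ± 0.959), Spry2 (7.35 ± 0.262), Dusp5 (4.57 ± 1.43) and Spry4 (1.69 ± 0.282). Neighbours in this order had separate ranges at 4 steps, Spred1 over Dusp6, Spry1 over Dusp4, Spry2 over Dusp5 and Dusp5 over Spry4, and overlapped at the others. The order in CML-TKI began with Spred1 (27.7 ± 26.3), Dusp6 (19.6 ± 22.5), Dusp2 (15.5 ± 9.45) and Dusp1 (14.4 ± 13.3), and went on with Spry2 (8.58 ± 6.63), Spred2 (5.37 ± 4.16), Spry1 (3.55 ± 5.78), Dusp5 (2.64 ± 1.42), Spry4 (1.21 ± 1.26) and Dusp4 (1.08 ± 1.87). All neighbours overlapped there. Over CML-TKI 2 to 4 alone, an order taken after seeing the data, Dusp2 (17.2 ± 10.8) came before Spred1 (15.1 ± 9.41), Dusp6 (8.62 ± 5.85) and Dusp1 (8.20 ± 6.03). The coefficient of variation was larger in CML-TKI than in CML for 10 of the 10 genes.

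**Figure D4:**
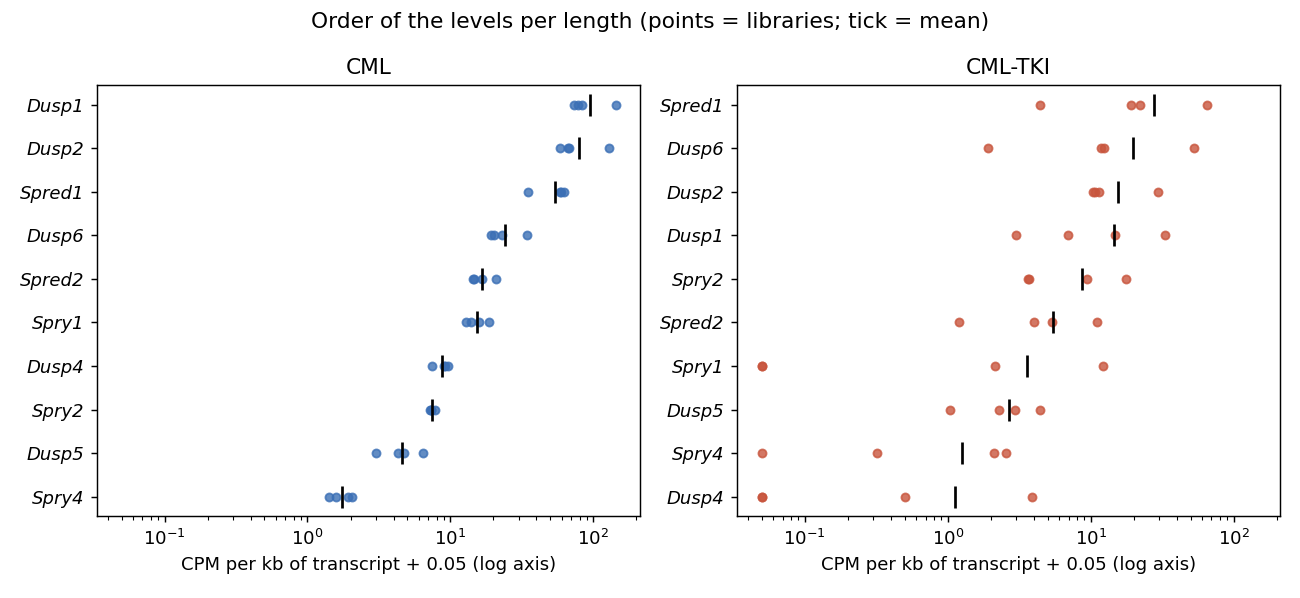
Level per kilobase of transcript (log axis, with 0.05 added so that libraries without a count can be drawn) of the 10 genes, ordered by mean within CML and within CML-TKI, with points for libraries and ticks for means. Dusp1 and Dusp2 lead in CML and follow Spred1 and Dusp6 in CML-TKI, where the ranges of neighbours overlap throughout and Dusp2 leads once CML-TKI 1 is left out.

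The rest of the pathway gives the setting of these values. Of the 4 other MAP kinase phosphatases tested, 0 passed the threshold by edgeR's test, 1 had an unadjusted p under 0.05 (Dusp9), and DESeq2 and limma-voom called 1 and 3. Without CML-TKI 1, 2 of the 4 were called lower, Dusp9 and Dusp16, and the median log2 fold change went from −0.55 to −1.92. Dusp16, a phosphatase of JNK and p38, was not called (log2 fold change −1.59, SE 0.908, adjusted p = 0.307) but had 42.1 CPM in CML-TKI 1 and 0.924 to 4.36 CPM in the other treated libraries, against 34.0 to 45.1 CPM in CML, and was singled out after its values were seen. Without CML-TKI 1 its log2 fold change was −4.11 with an adjusted p of 0.000563 by edgeR. Among the 8 atypical DUSPs tested, Dusp22 rose, from 2.07 ± 0.647 to 15.7 ± 13.1 CPM (log2 fold change 2.91, SE 0.648, adjusted p = 0.0205 by edgeR), and lost its call when any 1 of the CML libraries was left out.

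The kinases and adaptors from receptor to ERK were not called, nor were the kinases downstream of ERK in the same list (Rps6ka1, Rps6ka2, Rps6ka3, Mknk1, Mknk2). Of 25 genes tested, 0 passed the threshold by edgeR's test, 4 had an unadjusted p under 0.05, DESeq2 called 2 and limma-voom 3, and their median log2 fold change was 0.15. Map2k1, which encodes the ERK kinase MEK1, had 58.2, 64.6, 53.8 and 63.1 CPM in CML and 87.2, 175.5, 111 and 72.9 CPM in CML-TKI 1 to 4. It was higher in every treated library, with a log2 fold change of 0.90 (SE 0.283) and an adjusted p of 0.0753 by edgeR, and it passed without CML-TKI 1 (0.997, adjusted p = 0.0392). In that fit 3 genes of the list rose and 0 fell, against 9.64% of all genes called higher. They were Map2k1 and, from downstream of ERK, Rps6ka1 and Rps6ka2. Of the 9 JNK and p38 kinases tested, 0 passed, 1 had an unadjusted p under 0.05 (Map2k4), and DESeq2 and limma-voom called 1 each. Without CML-TKI 1, Map2k4 was called higher and Mapk12 lower.

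Other brakes on RAS and ERK include the GTPase-activating proteins of RAS and the CBL ubiquitin ligases. Of 18 tested, 2 rose and 0 fell by edgeR's test, with a median log2 fold change of −0.18. At an unadjusted p under 0.05 there were 3 higher and 4 lower, and DESeq2 and limma-voom called 5 each. Rasa2, a RAS GTPase-activating protein, had 32.5, 33.8, 35.3 and 13.1 CPM in CML and 90.6, 69.6, 68.6 and 54.5 CPM in CML-TKI 1 to 4 (log2 fold change 1.31, SE 0.338, adjusted p = 0.0376). Its relative Rasa4 rose from 10.8 ± 4.72 to 45.5 ± 26.1 CPM (log2 fold change 2.06, SE 0.563, adjusted p = 0.0463). These calls depended on the libraries. Neither gene was called without CML 1, CML 2, CML 3, CML-TKI 2 or CML-TKI 3. Rasa2 alone was called without CML 5 or CML-TKI 4, and both were called, with Cbl, without CML-TKI 1. The single brake called without CML-TKI 2 was Dab2ip and without CML-TKI 3 Rasal3, both lower.

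The other ERK-responsive genes are mostly immediate early genes, induced within minutes of a stimulus without new protein. Of 20 tested, 8 fell (Jun, Fosb, Ier2, Egr1, Fos, Junb, Ier3, Zfp36) and 1 rose (Fosl2) by edgeR's test, with a median log2 fold change of −1.69. Egr1, an immediate early transcription factor, had 197, 166, 234 and 302 CPM in CML and 18.1, 0, 0 and 4.13 CPM in CML-TKI 1 to 4. The groups were far apart, also in CML-TKI 1 (log2 fold change −5.09, SE 0.939, adjusted p = 0.00959). Jun and Fosb, subunits of AP-1, changed by −2.79 (SE 0.369, adjusted p = 0.00195) and −2.85 (SE 0.380, adjusted p = 0.00204). Ier2 changed by −2.19 (SE 0.291, adjusted p = 0.00204).

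Fosl2, a further AP-1 subunit, went the other way, from 20.9 to 31.3 CPM in CML to 94.7 to 190 CPM in CML-TKI (log2 fold change 2.45, SE 0.271, adjusted p = 0.00087 by edgeR). The summed level of the list was 1945 to 2946 CPM in CML and 997, 888.5, 570.5 and 800 CPM in CML-TKI 1 to 4. Here CML-TKI 1 lay with the other treated libraries rather than with CML, unlike its sum over the feedback genes. Called genes of the list numbered 6 to 11 when 1 library was left out, 6 without any 1 of the CML libraries and 11 without CML-TKI 1.

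**Figure D5:**
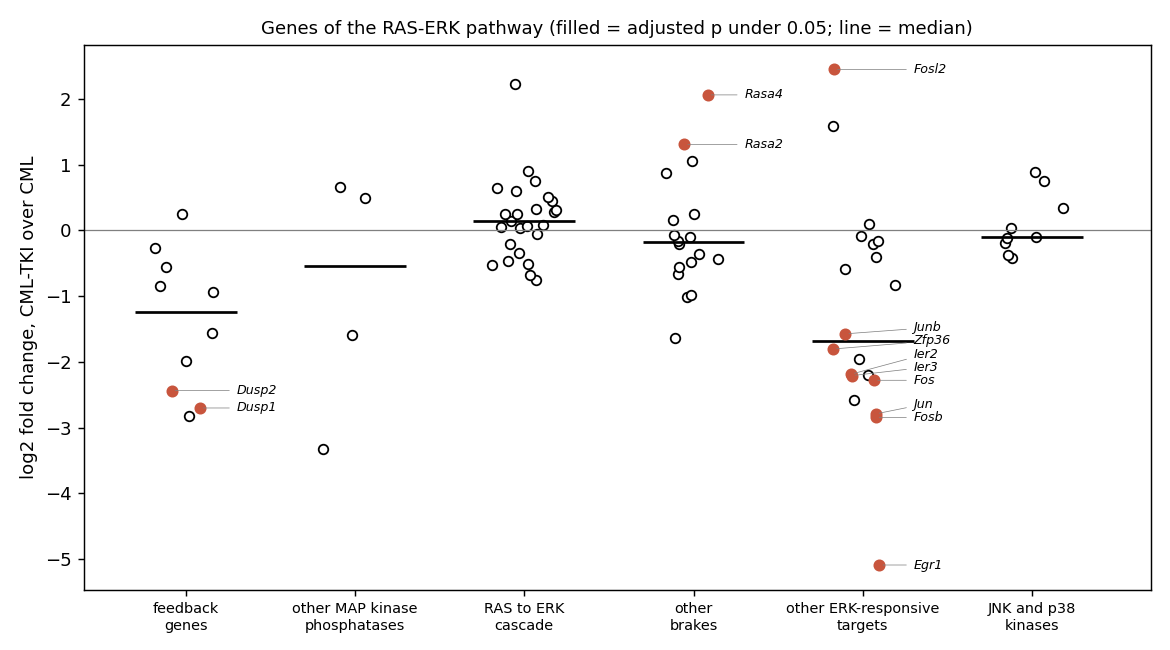
Log2 fold change of CML-TKI over CML for the feedback genes and 5 lists of genes around them, with filled points for an adjusted p under 0.05 by edgeR and a line at each median. The medians are −1.25 for the feedback genes, −1.69 for other ERK-responsive genes and between −0.55 and 0.15 for the other lists.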

How the data were processed

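The authors aligned paired-end Nextera XT reads to mm10 (GRCm38) with STAR 2.6.1d, and used Partek 8.0 to assign them to RefSeq transcripts. Their deposited table holds unnormalised estimated counts for each gene, which were rounded here. The test was the robust quasi-likelihood test of edgeR 4.0.16 (R 4.3.3), after TMM scaling and filterByExpr with a minimum count of 10 and a minimum total of 15. P-values were adjusted by Benjamini-Hochberg over 11937 genes, and calls used 0.05. Standard errors are the absolute log2 fold change over the square root of F. CPM values are counts scaled by total and TMM factor. Transcript lengths came from GENCODE models linked to RefSeq, and positions from RefSeq. The script was tested on simulated counts with the same dispersion in both groups, which does not cover the unequal spread of these libraries.

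The members and lists were chosen with earlier results of these data known. Named were the 10 members, from each other list up to 4 called genes in each direction with the lowest adjusted p, Egr1 and Map2k1, and for each member the genes most like it. Alternatives were other scalings (RLE, totals, Rn45s left out), no filter, DESeq2 1.42.0 and limma-voom with quality weights on the libraries (limma 3.58.1). Further ones were a replicate block, CML 1 to 3 summed, thinning, a threshold of 0.1 and leaving out each library. Every limma-voom result used the quality weights. Libraries that shared a number correlated in their deviations at −0.0416, 0.0972 and 0.0934, and the numbers were not taken as pairs. CML 1 to 3 differ little from each other, so these correlations cannot exclude pairs. Depth limits low genes, and floors of 3 counts cover counting error only.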

Additional observations from a re-analysis of the deposited data

Results flagged for a closer look

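Of 20 sets of 4 values (10 genes in 2 groups), 2 held a library far from the other 3, by Dixon's test on the ratio of gap to range in log2 CPM. Chance gives about 1 in 20 such sets. The ratios were not taken on the CPM values printed here, on which they would differ, so the flags hold for the log2 scale only. Dusp2 was at 47.9 CPM in CML-TKI 3, with a ratio of 0.906 and the other treated libraries at 16.6 to 18.4 CPM. Spred1 was at 130 CPM in CML 5 (129.6 CPM), with a ratio of 0.886 and the other untreated libraries at 217 to 232 CPM.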

How the results depend on the processing

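The scalings, the fit without a filter and the thinned counts called Dusp1 and Dusp2 and no other of the 10 genes, and no scaling reversed a gene. Genes past the threshold numbered 1220 (751 higher, 469 lower), against 2157 (1154, 1003) with DESeq2, 2544 (1244, 1300) with limma-voom, 1957 at an adjusted p under 0.1 and 505 (without CML 1) to 2504 (without CML-TKI 1, 1171 higher and 1333 lower) when 1 library was left out. They were 552, 570 and 806 without CML 2, 3 and 5. Of the 10 genes, DESeq2 called 4, limma-voom 6, and fits without 1 library 1 to 6. Numbers 1 to 3 do not pair the libraries. With them as a replicate block, 193 genes (150 higher, 43 lower) and 0 of the 10 passed, against 589 and 0 for the same libraries without the block. With CML 1 to 3 summed, 122 and 0 passed. At an unadjusted p under 0.05 these 3 fits had 3, 2 and 3 of the 10, all lower, against 9.24%, 10.6% and 5.81% of all genes. Dusp1 was then −2.66 with the replicate block, −2.18 without it and −2.96 summed, and Dusp2 −2.10, −1.98 and −2.71, with adjusted p of 0.0551 to 0.159. DESeq2 gave Dusp4 −2.94 and Spred2 −1.58, now past the threshold. limma-voom with quality weights gave Dusp4 −5.25, Spry1 −4.18, Spred1 −1.47 and Spred2 −1.66, past it, and reversed Spry2 to −0.15. Dusp6 reversed to 0.13 in the unblocked fit. With 1 library left out, ranges were −3.68 to −2.36 for Dusp1, −2.88 to −2.11 for Dusp2, −5.53 to −2.39 for Dusp4, −1.15 to −0.57 for Dusp5, −1.52 to 0.11 for Dusp6, −4.08 to −1.56 for Spry1, −0.37 to 0.52 for Spry2, −1.22 to −0.13 for Spry4, −1.79 to −0.58 for Spred1 and −2.14 to −1.26 for Spred2. Reasons for these shifts were not tested, beyond fewer libraries in the fits. Precision is limited for Dusp4, Spry1, Spry4 and Spred2, each at or under 3 counts in a treated library.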

Other observations

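Genes whose pattern over the 8 libraries was most like that of a feedback gene are named here. The pathway lists make up a small part of the genes compared, so nearest genes from elsewhere are no result about the pathway. Likeness was the root mean square difference of centred log2 CPM over 8 libraries, among 9294 genes (9295 for Dusp4 and Spry4). Pglyrp2 (0.291), Coq8a (0.304) and Scarf1 (0.327) were nearest to Dusp1, Il12rb1 (0.288), Aldh1l1 (0.371) and Fam110b (0.372) to Dusp2, and Spindoc (0.227), Tmem63b (0.313) and Rab6b (0.436) to Dusp6. Ptk7 (0.203) was nearest to Spry1 and Tmem181a (0.184) to Spry2. Among the feedback genes themselves, Spred1 and Spred2 were the nearest pair, at 0.512. The nearest other member was Spry4 for Dusp6 (0.836), Dusp5 for Dusp2 (0.866), Spred1 for Spry2 (0.962) and Dusp2 for Dusp1 (0.985). The ratio of Spred1 to Spred2 in CPM was 2.20 to 5.69 in CML and 4.71 to 7.74 in CML-TKI. These are descriptions over 8 libraries with no test.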
